A study of Caenorhabditis elegans with 11 samples.

Results

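rol-6, sqt-1 and sqt-2 are genes for cuticle collagens of the nematode Caenorhabditis elegans. They were taken by name from the authors' table of differentially expressed genes and make up 3 of its 882 listed genes, and 3 of the 66 listed genes in a list of cuticle collagens. Their group mean levels and fold changes were known when they were chosen, so those values are a description and carry no test here. Poly(A)+ RNA was sequenced from lysates of whole young adults. SACY-1, the worm ortholog of the helicase DDX41, carried an auxin-inducible degron in the depleted strains, so that the plant receptor TIR1 directs it to degradation when auxin is present.

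The soma-depleted group (3 samples, strain DG4703) carried tn1880, a sacy-1 allele on chromosome I with an aid::gfp::myc tag, and ieSi57 on chromosome II, a transgene that expresses TIR1::mRuby from the eft-3 promoter with Cb unc-119(+). The soma control group (2 samples, replicates 1 and 3, strain CA1200) carried ieSi57 and unc-119(ed3) on chromosome III, with no tagged sacy-1. In the germline-depleted group (3 samples, strain DG4700) the same tagged sacy-1 allele was joined with ieSi64, which expresses TIR1::mRuby from the gld-1 promoter with Cb unc-119(+). The germline control group (3 samples, strain CA1352) carried ieSi64 and unc-119(ed3). All 4 groups, controls included, received 2 mM auxin for 24 hours at 20 °C. In both comparisons the unc-119(ed3) allele differed together with the tagged sacy-1 allele, so that strain genotype and depletion cannot be told apart. The words soma and germline name where TIR1 was expressed, and the RNA is that of whole animals in every group.

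The cuticle is the extracellular coat that the epidermis secretes anew before each moult, and it is built mainly from small collagens with short glycine-rich triple helices. Cuticle collagens are made in waves within each moulting cycle, and different collagens build the cuticles of different stages. Mutations in some of them change the form of the body, and the genes are named for it. Rollers (rol) rotate around the long axis as they crawl, squat animals (sqt) can be short or can roll depending on the allele, and dumpy animals (dpy) are short and fat. A dominant allele of rol-6 that makes worms roll is widely used as a visible marker in transgenesis, and rol-6 and sqt-1 are known to interact genetically.

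All 3 genes lie on chromosome II of the assembly WBcel235. In the Ensembl release 115 annotation, rol-6 (WBGene00004397) runs from 8733050 to 8734239 on the plus strand, sqt-1 (WBGene00005016) from 11336693 to 11337837 on the minus strand, and sqt-2 (WBGene00005017) from 23325 to 24458 on the plus strand. The rol-6 transcript has 3 exons and codes for 348 amino acids. Both annotated sqt-1 transcripts have 3 exons, of which the first is untranslated, and code for 324 amino acids, while the single sqt-2 transcript has 3 exons and codes for 298. The introns are short, with 51 and 50 bases in rol-6, 52 and 52 in sqt-2, and 56 and 47 in the first annotated sqt-1 transcript. The 3 genes are thus alike in size but not adjacent. Of the 66 listed cuticle collagens, 11 lie on chromosome II, against 184 of the 882 listed genes.

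**Figure D1:**
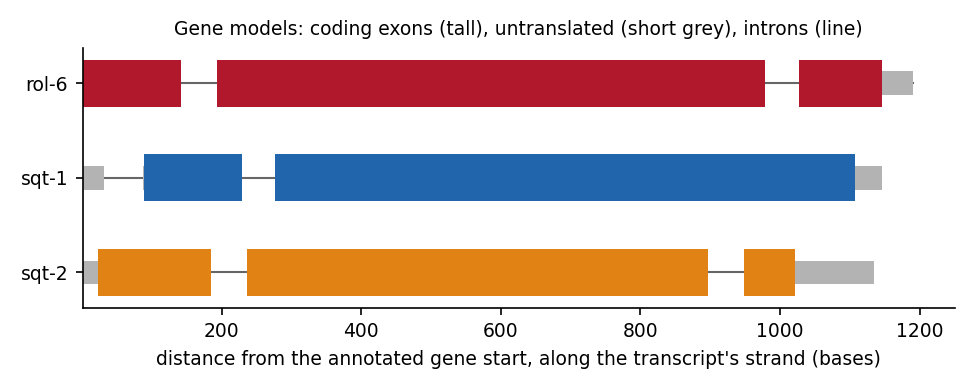
Exon structure of rol-6, sqt-1 and sqt-2, drawn to scale, with the distance in bases from the annotated gene start on the horizontal axis. Tall coloured bars are coding exons, short grey bars are untranslated sequence and lines are introns; each gene has 3 exons and introns of at most 56 bases.

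The transcripts of rol-6, sqt-1 and sqt-2 were scarce in soma-depleted worms, intermediate in soma controls and most abundant in both germline groups. Levels are given as the authors' group means in FPKM, a count of sequenced fragments corrected for transcript length and for the size of the library. For rol-6 the mean was 1.36 FPKM in soma-depleted worms, 17.9 in soma controls, 57.3 in germline-depleted worms and 99.8 in germline controls. For sqt-1 it was 1.29 FPKM in soma-depleted worms, 16.5 in soma controls, 53.4 in germline-depleted worms and 97.9 in germline controls. For sqt-2 it was 1.66 FPKM in soma-depleted worms, 21.4 in soma controls, 75.4 in germline-depleted worms and 129.6 in germline controls. The 4 groups thus stood in the same order for each gene, from soma-depleted through soma control and germline-depleted to germline control. The levels used are averages over replicates, so no standard deviation can be given, and whether neighbours in this order overlap between samples cannot be seen. In RNA from whole animals, fewer cells that express a gene and less RNA per cell cannot be told apart.

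**Figure D2:**
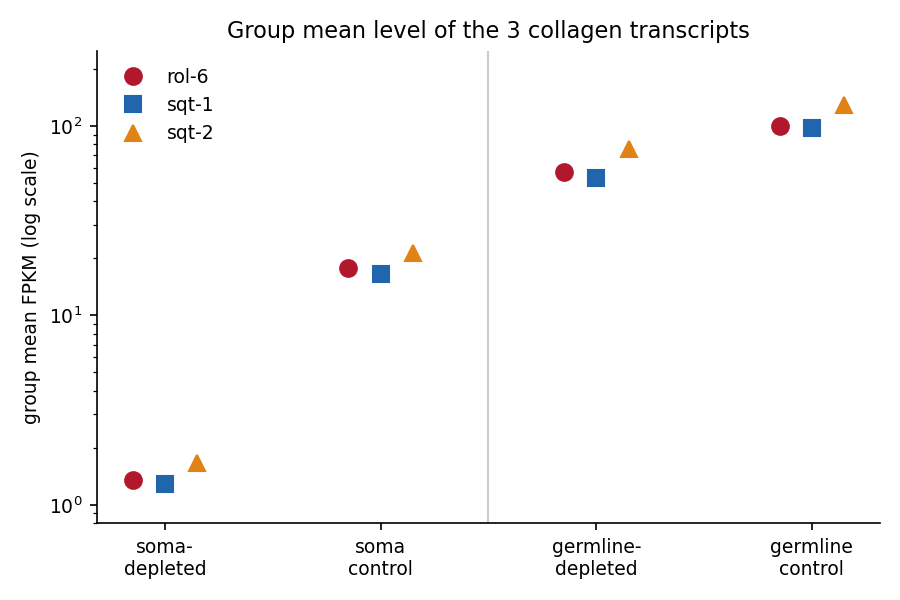
Group mean FPKM of rol-6, sqt-1 and sqt-2 on a logarithmic axis, by group. Each point is the authors' mean of one group, with no error bar because only averages over replicates were used. All 3 genes have their lowest mean in soma-depleted worms (1.29 to 1.66 FPKM) and their highest in germline controls (97.9 to 129.6 FPKM).

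The proportions between the 3 transcripts changed little while their levels changed by more than an order of magnitude. The sqt-1 level was 0.949 times that of rol-6 in soma-depleted worms, 0.920 times in soma controls, 0.933 times in germline-depleted worms and 0.981 times in germline controls. The ratio of sqt-2 to rol-6 in FPKM was 1.22 in soma-depleted worms, 1.19 in soma controls, 1.32 in germline-depleted worms and 1.30 in germline controls. In every group sqt-2 had the highest mean of the 3 and sqt-1 the lowest. Together the 3 transcripts made up 0.0285% of the summed FPKM of the 66 listed cuticle collagens in soma-depleted worms and 0.916% in soma controls. The corresponding shares were 1.56% in germline-depleted worms and 3.28% in germline controls. The other listed collagens are part of these shares, and their summed level was itself 15117 FPKM in soma-depleted worms, against 6026 in soma controls.

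The soma comparison asked which transcripts differ when SACY-1 is depleted outside the germline. The soma-depleted mean was 7.59% of the soma control mean for rol-6, 7.82% for sqt-1 and 7.75% for sqt-2, so the 3 decreases were within 0.237 percentage points of each other. The authors' deposited table gives log2 fold changes of -3.72 for rol-6, -3.66 for sqt-1 and -3.69 for sqt-2. These took places 6, 8 and 7 from the lowest among the 882 log2 fold changes. The DESeq2 adjusted p-values in the authors' deposited table were 5.17e-51 for rol-6, 4.30e-19 for sqt-1 and 1.27e-17 for sqt-2. The fold changes were nearly alike, while the adjusted p of rol-6 was far below those of the other two. All 3 of 3 members were called lower at the authors' adjusted p under 0.05, beside 29.8% of all listed genes. The members were chosen on this comparison, and the table lists only genes that passed, so nothing is read from this count. With a pseudocount of 1 FPKM, the log2 change from the group means was -3.003 for rol-6, -2.93 for sqt-1 and -3.07 for sqt-2, since the soma-depleted levels are close to that pseudocount.

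The germline comparison asked the same for depletion in the germline. There the depleted mean was 57.4% of the germline control mean for rol-6, 54.6% for sqt-1 and 58.2% for sqt-2. The authors' deposited table lists germline log2 fold changes of -0.80 for rol-6, -0.87 for sqt-1 and -0.78 for sqt-2, at places 143, 140 and 146 from the lowest of 882. For rol-6 the authors' DESeq2 adjusted p was 0.000104 and for sqt-1 it was 0.0256, while for sqt-2 it was 0.0696, above the threshold of 0.05. Thus 2 of the 3 were called lower, beside 21.1% of all listed genes in that direction, and nothing is read from this count either. The fold changes of the 3 genes differed by at most 0.0924 on the log2 scale although their adjusted p-values fell on both sides of the threshold. None of the 3 reached an absolute log2 fold change of 1 in the germline, the smallest with which a called gene enters the table, so each is listed through the soma comparison.

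Between strains the distance was large as well. The soma control mean was 17.9% of the germline control mean for rol-6, 16.8% for sqt-1 and 16.5% for sqt-2, which corresponds to log2 ratios of -2.48, -2.57 and -2.60. Soma-depleted worms had 2.37% of the germline-depleted level of rol-6, 2.41% of that of sqt-1 and 2.20% of that of sqt-2. The authors' table holds no test between the soma and germline strains. A difference between the 2 depletions in their effect on these genes was not tested, since it needs values by sample.

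By the measure of likeness used here, the genes with the most similar profile over the 4 groups were mostly other collagens. Likeness was measured as the root mean square difference between centred log2(FPKM + 0.1) profiles, in which 0 means the same centred profile. The added 0.1 FPKM flattens falls to low levels, so the measure depends in part on the level of a gene. The measure rests on 4 group means. Among themselves, rol-6 and sqt-1 differed by 0.0346, sqt-1 and sqt-2 by 0.0588, and rol-6 and sqt-2 by 0.0637. The median difference of the other 879 listed genes from the mean profile of the 3 was 2.55, and that of the 63 other listed cuticle collagens was 2.24. Most listed cuticle collagens thus lay far from the profile of rol-6, sqt-1 and sqt-2.

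The nearest gene was dpy-8, a collagen of the annular furrows, the circular grooves of the cuticle, at a difference of 0.111. Its mean was 0.352 FPKM in soma-depleted worms, 6.31 in soma controls, 21.8 in germline-depleted worms and 38.6 in germline controls. With the pseudocount of 0.1 FPKM it was also the nearest gene to each of rol-6, sqt-1 and sqt-2 taken alone. The next were the collagen gene col-17 at 0.185, the roller collagen gene rol-8 at 0.202 and dpy-9, a second furrow collagen, at 0.236. The first place of dpy-8 depends on the pseudocount, which weighs on its low soma-depleted mean. Without a pseudocount col-17 lay nearer than dpy-8 to the 3 genes. For rol-8, which shares a name with rol-6 for the same rolling movement, the mean was 1.02 FPKM in soma-depleted worms, 9.30 in soma controls, 39.1 in germline-depleted worms and 73.8 in germline controls. Further genes among the nearest 10 were col-128 at 0.252, col-90 at 0.277, col-41 at 0.300, Y52B11B.1 at 0.345, the dumpy collagen gene dpy-13 at 0.439 and C05G5.7 at 0.477. The list of cuticle collagens held 8 of these 10, with the exceptions of Y52B11B.1 and C05G5.7. Log2 fold changes of the 10 in the authors' deposited table ran from -4.15 to -2.44 in the soma and from -1.24 to -0.03 in the germline comparison. Ranked by Pearson correlation in place of the difference, only 2 of the 10 stayed among the nearest, namely dpy-8 and col-17. None of the genes that replaced the others is in the list of cuticle collagens, so the collagen majority depends on the measure. A correlation over 4 points passes over the size of the changes.

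**Figure D3:**
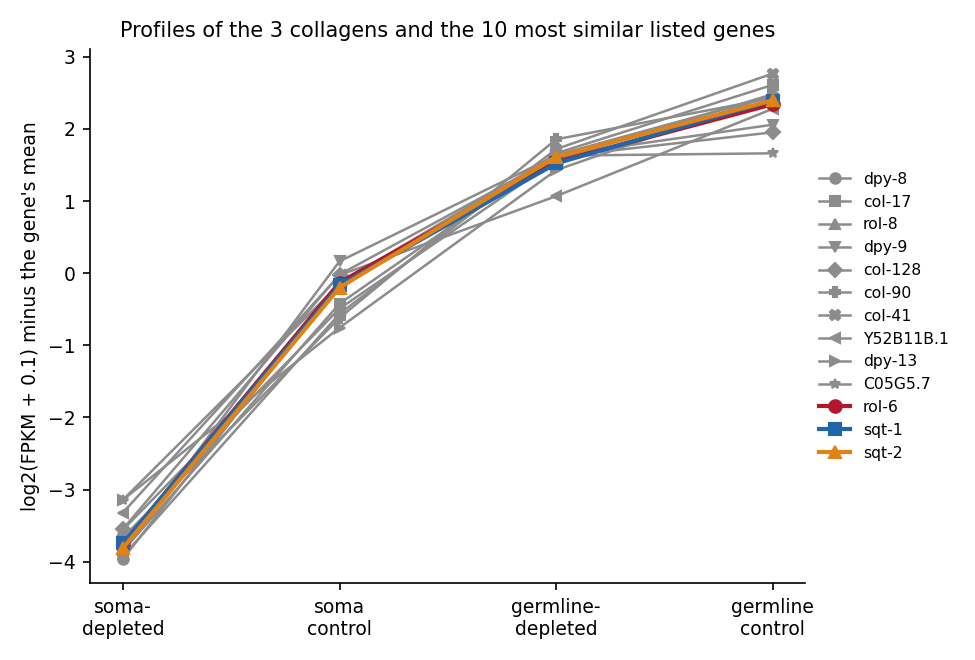
Centred log2(FPKM + 0.1) of rol-6, sqt-1 and sqt-2 (coloured) and of the 10 listed genes with the smallest root mean square difference from them (grey), by group; a line joins the 4 group means of one gene. The 3 coloured lines nearly coincide, and the grey lines spread around them with differences of 0.111 to 0.477.

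Set among all cuticle collagens, rol-6, sqt-1 and sqt-2 belonged to the part of the family that was lower after soma depletion. Of the 66 listed members of the family, out of 175 genes with such names in the annotation, 18 were called lower and 32 called higher in the soma comparison, beside 29.8% lower and 29.7% higher among all listed genes. The 18 lower ones had a median of 1.23 FPKM in soma-depleted worms, against 10.2 in soma controls, and 37.7 in germline-depleted worms, against 72.4 in germline controls. All 18 had a negative log2 fold change in the germline comparison of the authors' deposited table, where the median of all listed genes was 0.33. Of these 18, 9 were called lower there, beside 21.1% of all listed genes. Those not called there are listed only through the soma comparison. The 18 include rol-6, sqt-1 and sqt-2, whose values were known when they were chosen, and rol-6 and sqt-1 are among the 9. These counts thus restate the choice in part and are a description. The 32 higher ones had a median of 176 FPKM in soma-depleted worms, against 51.7 in soma controls. The most abundant of these in soma-depleted worms, col-119, had 2227 FPKM in soma-depleted worms, against 970 in soma controls. Among them was col-19, a collagen known for the adult cuticle, with a mean of 439 FPKM in soma-depleted worms and 164 in soma controls (log2 fold change 1.42 in the authors' deposited table, DESeq2 adjusted p = 9.31e-11). Its mean was 351 FPKM in germline-depleted worms, against 214 in germline controls (log2 fold change 0.71, adjusted p = 0.000574). Whether developmental stage at harvest had a part in the levels of rol-6, sqt-1 and sqt-2 was not tested; all samples are labelled young adults.

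A further portion of the family, 16 listed collagens, was not called in the soma comparison. A gene not called in the soma is listed only if it was called in the germline, so all 16 were called there by construction. Their direction was lower in each case, with a median of 24.2 FPKM in germline-depleted worms, against 51.6 in germline controls. An example is col-10, with 70.1 FPKM in germline-depleted worms, against 149 in germline controls, and 58.7 FPKM in soma-depleted worms, against 70.5 in soma controls. Over the 63 collagens other than the 3, the median log2 fold change in the authors' deposited table was 0.47 in the soma, where the median of all 882 listed genes was -0.08. In the germline it was -0.43, where that of all listed genes was 0.33. Of those 63 collagens, 15 were called lower and 32 higher in the soma, and 27 lower and 14 higher in the germline, beside 21.1% lower and 41.8% higher among all listed genes.

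**Figure D4:**
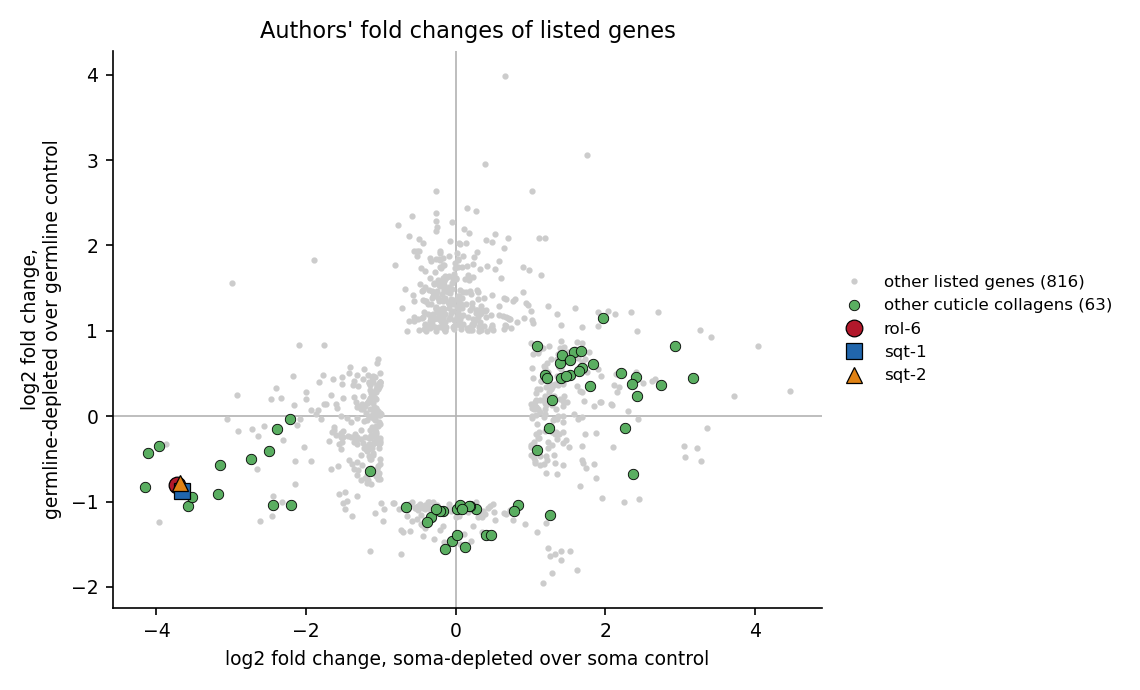
The authors' log2 fold changes of 882 listed genes, soma-depleted over soma control on the horizontal axis and germline-depleted over germline control on the vertical axis. Grey points are 816 other genes, green points 63 other cuticle collagens, and the large symbols rol-6, sqt-1 and sqt-2, which lie together near -3.7 and -0.8; the gap around the centre is the authors' threshold for listing.

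The order of group means seen for rol-6, sqt-1 and sqt-2, with soma-depleted lowest, then soma control, germline-depleted and germline control, was found in 19 of the 63 other listed cuticle collagens (30.2%). It was found in 84 of all 882 listed genes (9.52%). The 3 genes were chosen with this order known, and the other collagens were read from the same libraries, so these shares are a description.

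Genes with known roles in building the cuticle around these collagens were few in the table. The furrow collagens are dpy-2, dpy-3, dpy-7, dpy-8, dpy-9 and dpy-10, and 3 of these 6 were listed. All of these 3 were called lower in both comparisons, beside 29.8% of all listed genes in the soma and 21.1% in the germline. Their germline log2 fold changes were all under 1 in size, so each is listed through the soma comparison. Being called there was thus fixed by the listing, and nothing is read from the soma count. The genes dpy-8 and dpy-9 are also among the nearest profiles above. Besides dpy-8 above, dpy-9 had 1.16 FPKM in soma-depleted worms, against 20.3 in soma controls, and dpy-3 had 4.78 FPKM in soma-depleted worms, against 10.7 in soma controls. The list of cuticle collagens left out dpy-5, which also encodes a cuticle procollagen and had been placed with the processing genes. Its level was 3.07 FPKM in soma-depleted worms, against 15.3 in soma controls (log2 fold change -2.32 in the authors' deposited table, DESeq2 adjusted p = 0.000673), and 61.2 FPKM in germline-depleted worms, against 122 in germline controls (log2 fold change -1.001, adjusted p = 0.115). With dpy-5 there would be 67 listed collagens, 19 of them called lower and 32 higher in the soma, and 29 lower and 14 higher in the germline. Of the remaining 12 genes for processing and cross-linking of collagens, 1 was listed. This gene, the peroxidase gene mlt-7, had 6.86 FPKM in soma-depleted worms, against 13.9 in soma controls, and 9.92 in germline-depleted worms, against 14.1 in germline controls. It was called lower in both, beside 29.8% of all listed genes in the soma and 21.1% in the germline. Its germline log2 fold change was -0.50, so it is listed through the soma comparison and its soma call was fixed by the listing.

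Of 42 cuticlin and apical matrix genes, 2 were listed, noah-2, which encodes a zona pellucida domain protein, and the lipocalin gene lpr-3. The level of noah-2 was 7.15 FPKM in soma-depleted worms, against 14.7 in soma controls, and that of lpr-3 was 5.19 FPKM in soma-depleted worms, against 12.5 in soma controls. Both were called lower in the soma comparison, beside 29.8% of all listed genes. Neither was called in the germline one, where 21.1% of all listed genes were called lower and 41.8% higher. A listed gene not called in the germline was called in the soma by construction, so nothing is read from these soma calls. Among 41 moulting genes and their regulators, the transcription factor gene myrf-1 was the 1 listed, with 1.82 FPKM in soma-depleted worms, against 4.55 in soma controls (log2 fold change -1.31 in the authors' deposited table, DESeq2 adjusted p = 1.66e-05). In the germline comparison myrf-1 was not called (log2 fold change -0.33, DESeq2 adjusted p = 0.281), so its soma call also follows from the listing. Loss of furrow collagens is known to raise a set of osmotic, detoxification and antimicrobial genes. Of 9 such genes, cnc-2, for an epidermal antimicrobial peptide, was listed. In the soma comparison it was lower, with 26.2 FPKM in soma-depleted worms, against 69.5 in soma controls (log2 fold change -1.41 in the authors' deposited table, DESeq2 adjusted p = 0.00344). Its germline change went the other way and was not called, with 170 FPKM in germline-depleted worms, against 114 in germline controls (log2 fold change 0.58, DESeq2 adjusted p = 0.200). Together with cnc-1 it made up the 2 listed of 22 epidermal antimicrobial peptide genes. Both were called lower in the soma comparison, beside 29.8% of all listed genes, and neither in the germline one. Their soma calls too follow from the listing. For cnc-1 the mean was 2.29 FPKM in soma-depleted worms, against 5.77 in soma controls.

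Markers of other cell types were listed in small numbers, and a gene that is not listed can have any level. Of 33 sperm genes, 12 were listed and all 12 called higher in the soma comparison, beside 29.7% of all listed genes. In the germline comparison 3 were called higher, beside 41.8%. The 9 not called in the germline are listed only through the soma comparison, so nothing is read from the soma count. The summed level of the 12 was 71.3 FPKM in soma-depleted worms, against 24.6 in soma controls, and 43.5 FPKM in germline-depleted worms, against 27.0 in germline controls. Of 5 neuronal markers, unc-119 was listed, which the strains carry as an allele or transgene; it had 22.8 FPKM in soma-depleted worms, against 8.91 in soma controls, and 7.96 in germline-depleted worms, against 5.74 in germline controls. Of 8 embryonic genes, end-3 and pes-10 were listed, with a summed level of 7.72 FPKM in soma-depleted worms, against 9.03 in soma controls, and 5.90 FPKM in germline-depleted worms, against 2.29 in germline controls. Both were called higher in the germline, beside 41.8% of all listed genes, and neither was called in the soma. These 2 genes are thus listed only through the germline comparison. Of 9 markers of hypodermis and seam, the epidermal cells that make the cuticle, col-10 and col-19 were listed, both described above. No marker of 6 for intestine, 5 for muscle or 6 for germline and oocytes was listed. The part of these cell types in the levels of rol-6, sqt-1 and sqt-2 was not tested.

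Splicing is an independent readout, since SACY-1 is known as a protein of the spliceosome and the rule that chose the genes did not use it. None of the 3096 events in the authors' table of splicing changes overlapped rol-6, sqt-1 or sqt-2 or carried their names. Of the 66 listed cuticle collagens, 1 had an event, col-144, and of the 881 listed genes that could be looked up, 72 had one. The table holds only events that passed a threshold, and how many reads covered the introns of these genes is not given, so a splicing difference in them was not detectable from it and is not shown to be absent.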

How the data were processed

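Trim Galore 0.6.0, cutadapt 1.18, STAR 2.7.2a, SAMtools 1.7, DESeq2 1.26.0 and the build WBcel235/ce11 are named in the submitters' processing notes, and gene identifiers follow Ensembl 97 per the file headers. Which tool counted the reads is not named there. The authors deposited normalized mean FPKM values per group, log2 fold changes, Benjamini-Hochberg adjusted p-values and q-values of splicing events. The mean count over all samples (1506 for rol-6, 1297 for sqt-1 and 1723 for sqt-2) is treated as a score, averaged by the authors over all samples per the file headers, which do not give its normalization. Each of the 882 listed genes had, in at least 1 comparison, an adjusted p under 0.05 together with a log2 fold change of 1 or more in size, so unchanged genes were not analysed here.

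Values by sample were not used here, so sequencing depth per sample is unknown and no further test was run. How many libraries entered each mean is not stated in the headers, and averaging hides the spread between replicates. The header words the germline fold change as set against the soma control. It lay within 0.1 of the log2 ratio of germline-depleted to germline control FPKM for 882 of 882 genes, and is read so; for the soma, 880 of 882 did.

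The members and gene lists were chosen with earlier results of these data known. Named genes are the 3 members, the 10 genes with the nearest profile over 4 groups and the nearest 3 to each, up to 6 called members per list by adjusted p, and listed neighbours on the chromosome; col-119, col-19, col-10 and col-144 were named after their values were seen. Alternatives were pseudocounts of 0, 0.1 and 1 FPKM, an adjusted p under 0.01, absolute log2 fold changes of at least 1 and 2, a mean count of at least 100, and Pearson correlation as the measure of likeness. Gene models came from Ensembl release 115 of the same assembly, which held 881 of 882 identifiers. Counting and ranking were tested on simulated data. Planned comparisons of protein and promoter sequences were not made here. Python 3.11.15, numpy 2.4.6, pandas 2.3.3 and matplotlib 3.10.9 were used.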

Additional observations from a re-analysis of the deposited data

How the results depend on the processing

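No paired analysis was possible because the columns used are group means that carry no replicate number, and leaving out a replicate was not possible for the same reason. Of 70 alternative values, 57 stayed within 1.5 times the reported value, and none reversed. With a pseudocount of 1 FPKM the soma log2 change moved to -3.003 for rol-6, -2.93 for sqt-1 and -3.07 for sqt-2, and the log2 ratio of soma-depleted to germline-depleted to -4.63, -4.57 and -4.85. This follows from levels of 1.29 to 1.66 FPKM in soma-depleted worms, where the added value is of the size of the level. With log2 fold changes of 1 or more in size, 1 cuticle collagen was called higher in the germline and 0 furrow collagens lower. At 2, the collagens called higher in the soma numbered 9, and in the germline 0 were called lower and 0 higher, nor any furrow collagen (0); these settings keep fewer genes by construction. By Pearson correlation 2 of the nearest 10 genes were shared with the reported 10, against 8 with a pseudocount of 1 and 9 with none. With none, col-17 lay nearer than dpy-8 to the mean profile of the 3 genes. A filter on mean count of at least 100, added after the data were seen for the group order, and dpy-5 counted as a collagen, also added after they were seen, changed none of these counts by more than 1.5 times. Group means with no replicate spread limit every value above.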

Other observations

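Most other listed body-shape genes were also lower after soma depletion. They were taken after the values were seen, as all genes named dpy, rol, sqt, lon, bli or sma other than rol-6, sqt-1 and sqt-2, of which 11 were listed out of 47 in the annotation, so their counts are a description. By the authors' deposited table, 10 genes were called lower and 1 higher in the soma comparison, beside 29.8% lower among all listed genes. Their median log2 fold change there was -2.44. The 1 higher was the blister collagen gene bli-6, with 2.52 FPKM in soma-depleted worms, against 0.528 in soma controls. In the germline comparison 4 were called lower, beside 21.1% of all listed genes, and 0 higher, beside 41.8%. The 4 called there had germline log2 fold changes under 1 in size, and the other 7 were not called there. All 11 are thus listed only through the soma comparison. Their being called in the soma was fixed by the listing, and nothing is read from the soma count. Not all of the 10 are collagens. The mucin-like gene dpy-6 had 0.803 FPKM in soma-depleted worms, against 5.05 in soma controls (log2 fold change -2.65, DESeq2 adjusted p = 1.48e-10), and the zinc finger gene dpy-20 had 0.247 FPKM in soma-depleted worms, against 1.86 in soma controls (log2 fold change -2.90, adjusted p = 8.26e-15). Neither was called in the germline, where dpy-6 had 8.23 FPKM in germline-depleted worms, against 9.64 in germline controls, and dpy-20 had 5.21 in germline-depleted worms, against 5.86 in germline controls. The collagen gene lon-3, in which loss of function gives long worms, had 1.96 FPKM in soma-depleted worms, against 10.1 in soma controls.

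The single listed gene nearest to each of the 3 collagens on chromosome II lay 1.83 to 2.03 from their mean profile by the root mean square difference. The median over all 879 other listed genes was 2.55. The second nearest listed genes lay farther from that profile, at 2.51 for the collagen gene col-38 by rol-6. The values were 2.26 for C47G2.6 by sqt-1 and 2.19 for C03H5.6 by sqt-2. The nearest to rol-6 was chhy-1, 115433 bases away, with 4.601 FPKM in soma-depleted worms, against 9.29 in soma controls, and 8.62 in germline-depleted worms, against 8.42 in germline controls. Nearest to sqt-1 was C33B4.2, 32448 bases away, with 1.197 FPKM in soma-depleted worms, against 2.47 in soma controls, and 2.98 in germline-depleted worms, against 3.22 in germline controls; this is the same order of groups as in the 3 collagens, over a smaller range. The gene nearest to sqt-2 was B0432.14, 239894 bases away, with 47.8 FPKM in soma-depleted worms, against 77.5 in soma controls, and 53.8 FPKM in germline-depleted worms, against 138 in germline controls.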
